A study of Mus musculus with 8 samples.

Results

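The genes described here are 10 genes of beta cell identity and glucose sensing, Pdx1, Nkx6-1, Mafa, Neurod1, Slc2a2, G6pc2, Slc30a8, Ucn3, Abcc8 and Kcnj11, chosen by symbol. All 10 were found among the 15047 gene symbols measured in the pancreas of 8 male mice. In ob/ob mice most of them lay above the HFD mice, by 1.96 for Abcc8, 1.29 for G6pc2, 1.23 for Ucn3 and 1.21 for Slc30a8 on the log2 scale, but no difference of a single gene passed the adjusted test in any comparison. With the mean of pan-endocrine genes as a covariate, these 4 differences were 0.50, -0.28, -0.038 and 0.065. Their standard errors were 0.61, 0.84, 0.85 and 0.85. The pan-endocrine mean was also highest in ob/ob mice, at 8.71 to 9.38 against 7.46 to 7.51 in HFD mice. Covariate and group can thus hardly be told apart. The values of HFD mice lay below those of LFD mice on average for 8 of the 10 genes, by 0.20 to 0.68, which was within the spread between mice.

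The LFD group was 3 mice of strain C57BL/6 WT fed a Low-Fat Diet, and the HFD group was 3 mice of the same strain fed a High-Fat Diet in which 60% of the calories came from fat. In all groups, the ob/ob mice included, the diets began at the age of 4 weeks and lasted 10 weeks. The paper does not state the age or the time after transplant at which tissue was taken for RNA. The ob/ob group was 2 leptin-deficient C57BL/6J; ob/ob mice on standard chow, so that genotype and diet both differ from the other groups and cannot be told apart, and no lean mice on that chow were analysed here. According to the paper, these pancreata carried orthotopic transplants of mT organoids, which come from tumours of mice with Pdx1-Cre, a mutant allele of Trp53 and a further engineered change, a feature that the sample labels do not mention and that all groups would share. The Pdx1 promoter drives Cre in the pancreatic lineage of the mice the organoids came from. The paper names no such transgene in the hosts, and the sample labels are silent on it. Nothing in the labels says more than the replicate number about how the mice of a group were kept, so the p-values below measure the spread between these 8 samples.

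Beta cells are the insulin-producing cells of the islets of Langerhans, and in bulk pancreas they are a small part of a tissue made mostly of acinar cells. Glucose enters the mouse beta cell through the transporter GLUT2 (Slc2a2) and is phosphorylated, a step that the glucose-6-phosphatase G6pc2 opposes. The rise in ATP closes a potassium channel made of Kir6.2 (Kcnj11) and SUR1 (Abcc8), the membrane depolarizes and insulin granules, loaded with zinc by ZnT8 (Slc30a8), are released. The transcription factors Pdx1, Nkx6-1, Mafa and Neurod1 maintain this programme, and the peptide urocortin 3 (Ucn3) is a mark of mature beta cells in the mouse that acts on delta cells. In a bulk sample, fewer beta cells and less RNA per beta cell cannot be told apart.

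Promoters are shown for G6pc2 and Ucn3, the genes with a window that holds a searched motif, and for Slc2a2, whose values differed most between mice. RefSeq promoter windows on build GRCm38.p6 were at hand for 6 of the 10 genes, and the 250 bases before the start site are printed 5′ to 3′ on the strand of the gene. Capitals mark matches, on either strand, to TAATTA (a homeobox core), CAGATG (an E-box) or TGCTGAC (a MAF-type element), which read GTCAGCA for the last one on the opposite strand and do not overlap each other in these windows.
G6pc2, upstream start, chr2:69210823-69211072, plus strand: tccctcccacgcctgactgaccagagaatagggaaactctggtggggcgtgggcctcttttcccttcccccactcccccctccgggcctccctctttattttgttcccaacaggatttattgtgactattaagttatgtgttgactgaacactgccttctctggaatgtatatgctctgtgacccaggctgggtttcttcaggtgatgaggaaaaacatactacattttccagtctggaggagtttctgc
G6pc2, downstream start, chr2:69219699-69219948, plus strand: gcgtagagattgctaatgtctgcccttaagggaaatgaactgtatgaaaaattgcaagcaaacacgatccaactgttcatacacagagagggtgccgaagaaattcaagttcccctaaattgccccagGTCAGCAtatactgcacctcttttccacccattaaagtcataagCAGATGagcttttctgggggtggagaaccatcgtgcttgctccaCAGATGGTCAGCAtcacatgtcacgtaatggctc
Ucn3, chr13:3945350-3945599, minus strand: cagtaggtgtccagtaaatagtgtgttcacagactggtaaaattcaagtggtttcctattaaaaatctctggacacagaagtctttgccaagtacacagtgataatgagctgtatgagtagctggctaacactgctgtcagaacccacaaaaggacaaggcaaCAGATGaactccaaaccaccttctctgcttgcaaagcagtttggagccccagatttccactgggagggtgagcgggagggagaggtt
Slc2a2, chr3:28697653-28697902, plus strand: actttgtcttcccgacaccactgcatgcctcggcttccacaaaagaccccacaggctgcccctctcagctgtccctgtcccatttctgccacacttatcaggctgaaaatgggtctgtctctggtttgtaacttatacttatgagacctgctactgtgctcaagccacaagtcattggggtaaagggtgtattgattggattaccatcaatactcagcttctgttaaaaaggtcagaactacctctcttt

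The upstream G6pc2 window ends at the 5′ end of the annotated gene, which opens with an exon of a non-coding transcript. The downstream window lies in an intron of that transcript, and the gene's 2 annotated coding transcripts start 23 and 50 bases after its last base. This downstream window held CAGATG 78 and 34 bases before its start and the TGCTGAC element 122 and 28 bases before it, whereas the upstream one held none of the 3 motifs. The Ucn3 window held CAGATG 87 bases before the start, and the windows of Slc2a2, Pdx1, Nkx6-1 and Neurod1 held none. Of 32851 RefSeq windows of 250 bases, 4.84% held TAATTA, 14.4% held CAGATG and 3.81% held TGCTGAC. A match is a stretch of letters, and binding was not measured.

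The genes lie on several chromosomes (GRCm38, Gencode M21 annotation). Kcnj11 (chr7:46093953-46100764) and Abcc8 (chr7:46104523-46180033), which encode both kinds of subunit of the potassium channel, are neighbours on the minus strand with 3758 bases between them. Pdx1 is at chr5:147269959-147275848, Nkx6-1 at chr5:101658139-101664996, Mafa at chr15:75745490-75748228 and Neurod1 at chr2:79452521-79456751. Slc2a2 is at chr3:28697903-28731359, Slc30a8 at chr15:52295553-52335798, G6pc2 at chr2:69211073-69227841 and Ucn3 at chr13:3940688-3945349. Of the measured genes, Plut overlaps Pdx1 on the opposite strand and Cerkl overlaps Neurod1 on the same strand. Among genes that were not measured, Gm45487 overlaps Abcc8 on the same strand and Gm45486 overlaps it on the opposite one. Likewise, 1700112D23Rik overlaps Slc2a2 and Gm26755 overlaps Neurod1, each on the opposite strand. The deposited values do not show how reads were shared between overlapping genes.

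The values are rlog values of DESeq2, which are on a log2 scale, corrected for library size, and shrunk towards the mean of a gene where its reads are few. They are not per length, so levels are compared between mice and not between genes. Sequencing depth is unknown, since the deposited values give no read totals, and the error given is the spread between mice. The mean of the 18 acinar genes of a list was between 17.2 and 17.5 in LFD mice, 13.5 and 17.4 in HFD mice and 13.8 and 16.7 in ob/ob mice, with HFD replicate 1 near the LFD mice. Means of the 8 myeloid genes were 8.15 to 8.65, 9.27 to 10.1 and 9.72 to 10.2, and those of the 8 fibroblast and stellate genes were 9.48 to 9.86, 10.2 to 11.1 and 10.7 to 11.5. HFD replicate 3 stood apart in genes of intestinal enterocytes, and the part of these tissue shares in the results was not tested. For the tissue itself, Ins1 lay between 10.9 and 13.2 in all mice, so that islet RNA was present in every sample.

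**Figure D1:**
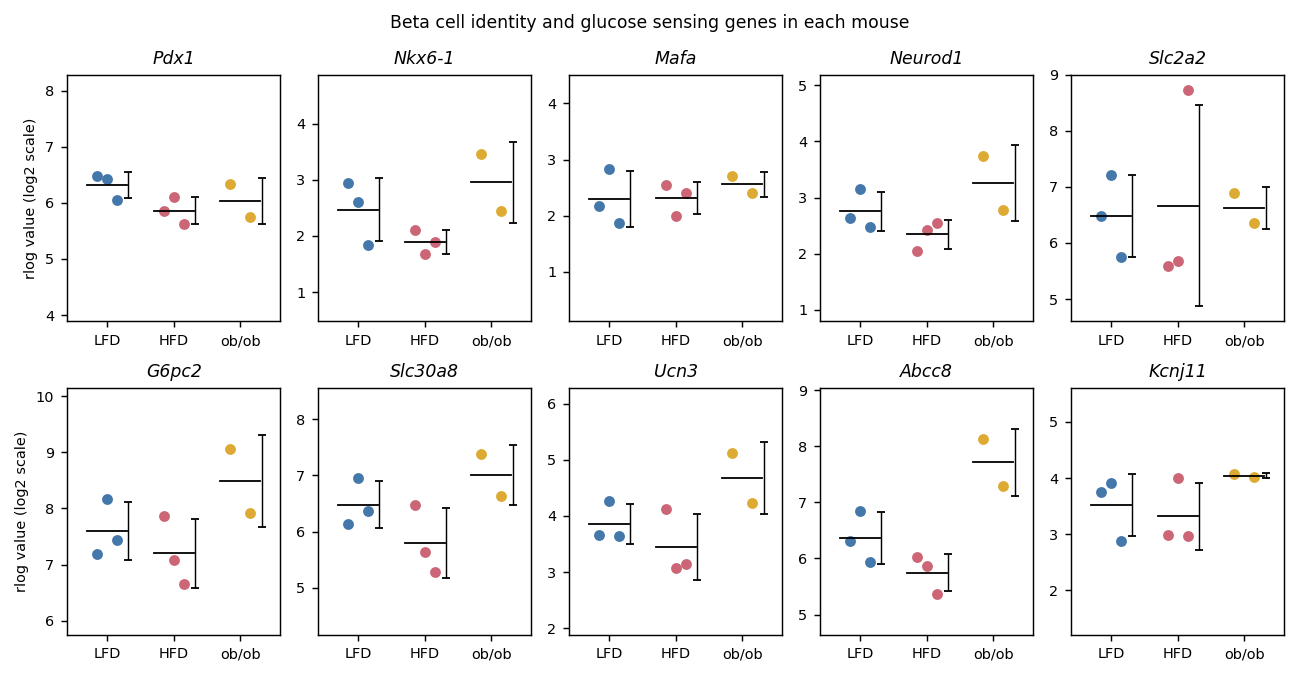
rlog values (log2 scale, vertical axis) of the 10 genes in the 3 LFD, 3 HFD and 2 ob/ob mice. Each point is a mouse, the horizontal line is the group mean and the bar is the SD, and all panels span the same number of log2 units. Both ob/ob mice lie above all HFD mice for 7 of the genes, and Slc2a2 has a single high mouse, HFD replicate 3, at 8.73.

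Among the transcription factors, Pdx1, which is needed for pancreas formation and later for insulin transcription, had the highest values in LFD mice. It was at 6.48, 6.42 and 6.05 in LFD replicates 1 to 3, at 5.85, 6.10 and 5.62 in HFD replicates 1 to 3, and at 6.33 and 5.74 in the ob/ob mice. HFD and LFD overlapped through a single pair of mice. The HFD mean was 5.86 ± 0.24 (SD, n = 3) against 6.32 ± 0.23 (n = 3), a difference of -0.46 with a standard error of 0.27 (limma, adjusted p = 0.353). The ob/ob mean of 6.03 ± 0.41 (n = 2) lay between them and differed from neither beyond the spread. Pdx1 was the only member whose mean was lower in ob/ob than in LFD mice, by 0.28 with a standard error of 0.30 (limma, adjusted p = 0.598).

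Nkx6-1 represses the programmes of other islet cells in beta cells. It was at 2.94, 2.61 and 1.84 in LFD, at 2.10, 1.68 and 1.90 in HFD and at 3.46 and 2.44 in ob/ob mice. Both ob/ob mice were above all HFD mice, while LFD replicate 3 lay among the HFD mice. The mean of ob/ob mice, 2.95 ± 0.72, was 1.06 above that of HFD mice, 1.89 ± 0.21, with a standard error of 0.42 (limma, unadjusted p = 0.0334, adjusted p = 1.00). Against the LFD mean of 2.46 ± 0.56, the differences were -0.57 for HFD and 0.49 for ob/ob.

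Neurod1, a basic helix-loop-helix factor of endocrine cells that binds E-boxes of the insulin genes, had a like order. Its values were 2.64, 3.15 and 2.48 in LFD, 2.05, 2.42 and 2.55 in HFD and 3.73 and 2.77 in ob/ob mice. Its mean of 3.25 ± 0.68 in ob/ob was 0.91 above that of 2.34 ± 0.26 in HFD, with a standard error of 0.37 (limma, unadjusted p = 0.0387, adjusted p = 1.00). LFD mice, at 2.75 ± 0.35, overlapped both.

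Mafa, a late factor of mature beta cells that activates insulin transcription with glucose, showed no order of the groups. It was at 2.18, 2.84 and 1.86 in LFD, at 2.54, 1.99 and 2.41 in HFD and at 2.71 and 2.40 in ob/ob mice, and all groups overlapped. The group means were 2.29 ± 0.50, 2.31 ± 0.29 and 2.56 ± 0.22. The 95% interval of the difference between HFD and LFD ran from -0.70 to 0.74 (limma), so values of that size in either direction lie inside it. The mean values of Nkx6-1 and Mafa over the 8 mice were higher than those of only 2.4% of all genes, and that of Neurod1 was higher than those of 4.3%, where the rlog transformation shrinks differences most.

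Slc2a2 had the widest range of the 10 genes, 3.14 log2 units, and it came from a single mouse. It was at 6.48, 7.21 and 5.76 in LFD mice, at 5.59, 5.67 and 8.73 in HFD mice and at 6.88 and 6.36 in ob/ob mice. HFD replicate 3 was the highest of all mice, whereas the other HFD mice were the lowest of all. The means were 6.48 ± 0.72, 6.66 ± 1.79 and 6.62 ± 0.37, with differences from LFD of 0.18 (standard error 0.79) for HFD and 0.14 (0.88) for ob/ob mice.

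GLUT2 is also the transporter of the basolateral membrane of enterocytes and of hepatocytes, and HFD replicate 3 carried enterocyte genes. Of 12 enterocyte genes in a list written after the values were seen, 7 were measured and all 7 were highest in this mouse. Fabp1, a fatty acid binding protein of enterocytes and hepatocytes, was at 13.3 there and between 3.71 and 4.28 in the other HFD and the LFD mice. Lactase (Lct) was at 11.1 in this mouse against 2.84 to 4.96 in the other 7, and the glucose cotransporter Slc5a1 was at 9.70 against 5.43 to 6.46. The apolipoproteins Apob and Apoa1 were at 15.1 and 13.5, and Mttp and Anpep at 11.4 and 10.5, where Anpep was at 9.97 to 10.1 in LFD mice. In the ob/ob mice Fabp1 was at 6.82 and 6.42 and Apoa1 at 6.51 and 6.29, 2.66 and 2.68 above the LFD means, and Apob and Mttp were 1.97 and 0.88 above them, each above all LFD mice in both ob/ob mice (limma, adjusted p from 0.532 to 0.717), while Lct and Slc5a1 overlapped with LFD and Anpep was lower. Summed on the linear scale, the 7 genes gave log2 values of 10.4 to 10.5 in LFD mice, 9.73 to 15.9 in HFD mice and 10.2 to 10.9 in ob/ob mice. None of 4 measured hepatocyte genes, from a list also written after the values were seen, was highest in HFD replicate 3. Albumin (Alb) was at its lowest there, 3.62. The cell source of the high Slc2a2 value in this mouse was not tested. Ins1 was at 10.9 in the same mouse, the lowest of the 8.

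Without HFD replicate 3, the difference of Slc2a2 between HFD and LFD turned from 0.18 to -0.85 (standard error 0.42, limma, adjusted p = 0.503), and that between ob/ob and HFD turned from -0.04 to 0.99 (0.46, adjusted p = 0.957). With the mean of the enterocyte genes as a covariate in all 8 mice, an alternative added after the data were seen, the difference between HFD and LFD was -0.73 (0.42, adjusted p = 0.511). This covariate was 12.1 in HFD replicate 3 and 5.54 to 7.23 in the other mice. It thus mostly marks that mouse, and the result is no separate check from leaving it out.

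**Figure D2:**
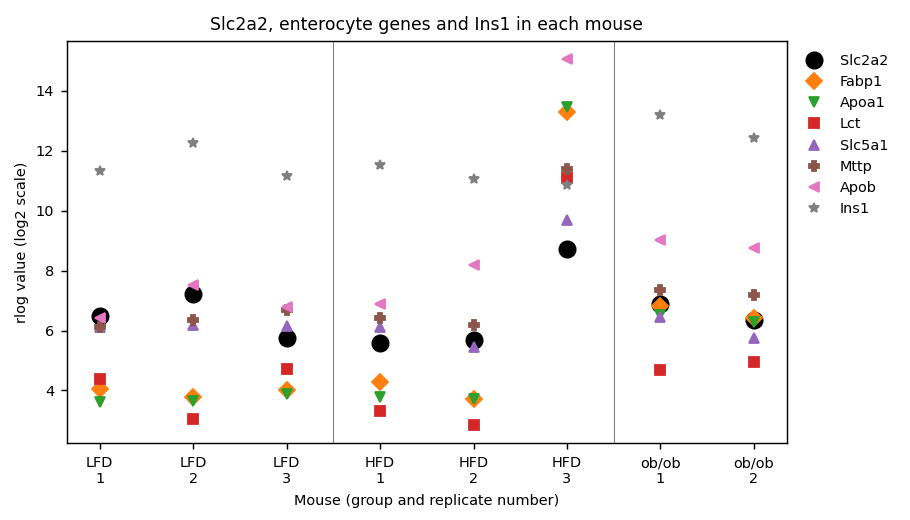
rlog values (log2 scale, vertical axis) of Slc2a2, 6 enterocyte genes and Ins1 in each of the 8 mice (horizontal axis). In HFD replicate 3 the enterocyte genes and Slc2a2 are at their highest, with Slc2a2 at 8.73, while Ins1 is at its lowest, 10.9.

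G6pc2, whose product removes phosphate from glucose-6-phosphate in the endoplasmic reticulum, was highest in an ob/ob mouse and lowest in an HFD mouse. It was at 7.19, 8.17 and 7.43 in LFD, at 7.87, 7.09 and 6.66 in HFD and at 9.07 and 7.91 in ob/ob mice. The ob/ob mice were above all HFD mice, but LFD replicate 2 was above ob/ob replicate 2. The ob/ob mean, 8.49 ± 0.82, was 1.29 above the HFD mean of 7.21 ± 0.61, with a standard error of 0.47 (limma, unadjusted p = 0.0235, adjusted p = 1.00), and 0.89 above the LFD mean of 7.60 ± 0.51 (0.47, adjusted p = 0.319).

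Slc30a8, the zinc transporter of insulin granules, was at 6.13, 6.95 and 6.36 in LFD, at 6.48, 5.64 and 5.27 in HFD and at 7.39 and 6.63 in ob/ob mice. HFD replicates 2 and 3 were below all LFD mice, and HFD replicate 1 was among them. The ob/ob mean of 7.01 ± 0.53 was 1.21 above the HFD mean of 5.80 ± 0.62 (standard error 0.43, limma, unadjusted p = 0.0202, adjusted p = 1.00) and 0.53 above the LFD mean of 6.48 ± 0.42 (0.43, adjusted p = 0.487). The difference of HFD from LFD, -0.68, was the largest of the 10 genes in that comparison (standard error 0.38, limma, adjusted p = 0.336), but it was -0.13 with the acinar mean as a covariate and ran from -1.03 to -0.42 when a mouse was left out. Without LFD replicate 3, Nkx6-1 and Abcc8 had larger differences, -0.88 and -0.83 against -0.74. With the pan-endocrine covariate, the difference of Slc30a8 between ob/ob and HFD was 0.065 (standard error 0.85).

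Ucn3, the peptide hormone, was at 3.66, 4.26 and 3.64 in LFD, at 4.13, 3.07 and 3.14 in HFD and at 5.12 and 4.23 in ob/ob mice. Its HFD values split as those of G6pc2 and Slc30a8 did, with replicate 1 above the other HFD mice. In ob/ob mice the mean of 4.68 ± 0.63 was 1.23 above the HFD mean of 3.45 ± 0.59 (standard error 0.44, limma, unadjusted p = 0.0220, adjusted p = 1.00) and 0.82 above the LFD mean of 3.86 ± 0.35 (0.44, adjusted p = 0.325). Its receptor gene Crhr2 was not among the genes measured. For G6pc2 and Ucn3, the difference between HFD and LFD moved from -0.39 and -0.41 to 0.25 and 0.11 when the acinar mean was a covariate. The differences between ob/ob and HFD moved to -0.28 and -0.038 with the pan-endocrine covariate (standard errors 0.84 and 0.85).

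Abcc8, the sulfonylurea receptor subunit of the ATP-sensitive potassium channel, had the largest differences of the 10 genes in both comparisons of ob/ob mice with another group. It was at 6.32, 6.84 and 5.93 in LFD, at 6.02, 5.86 and 5.37 in HFD and at 8.14 and 7.29 in ob/ob mice. Both ob/ob mice were above all 6 other mice. The ob/ob mean of 7.71 ± 0.60 was 1.96 above the HFD mean of 5.75 ± 0.34, a linear ratio of 3.90. This log2 difference had a standard error of 0.38 and a 95% interval of 1.10 to 2.82 (limma, unadjusted p = 0.00065, adjusted p = 0.883). Against the LFD mean of 6.36 ± 0.46 the ob/ob mean was 1.35 higher, a linear ratio of 2.55. The interval of that log2 difference was 0.49 to 2.21 (limma, unadjusted p = 0.00645, adjusted p = 0.196). HFD mice were 0.62 below LFD mice (standard error 0.34, adjusted p = 0.329). With the pan-endocrine covariate, the ob/ob mean was 0.50 above HFD (standard error 0.61) and 0.14 above LFD (0.53).

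Kcnj11, the pore subunit, was at 3.75, 3.92 and 2.89 in LFD, at 2.98, 4.01 and 2.97 in HFD and at 4.08 and 4.01 in ob/ob mice. The ob/ob mice were above all others, though HFD replicate 2 and ob/ob replicate 2 had the same value to 2 decimals. In ob/ob mice the mean of 4.05 ± 0.04 was 0.53 above the LFD mean of 3.52 ± 0.56 (standard error 0.44, limma, adjusted p = 0.500) and 0.73 above the HFD mean of 3.32 ± 0.59 (0.44, adjusted p = 1.00). The vascular relatives of the channel subunits, Abcc9 and Kcnj8, did not have this order, with ob/ob means 0.26 and 0.07 below those of LFD mice (adjusted p = 0.668 and 0.923).

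**Figure D3:**
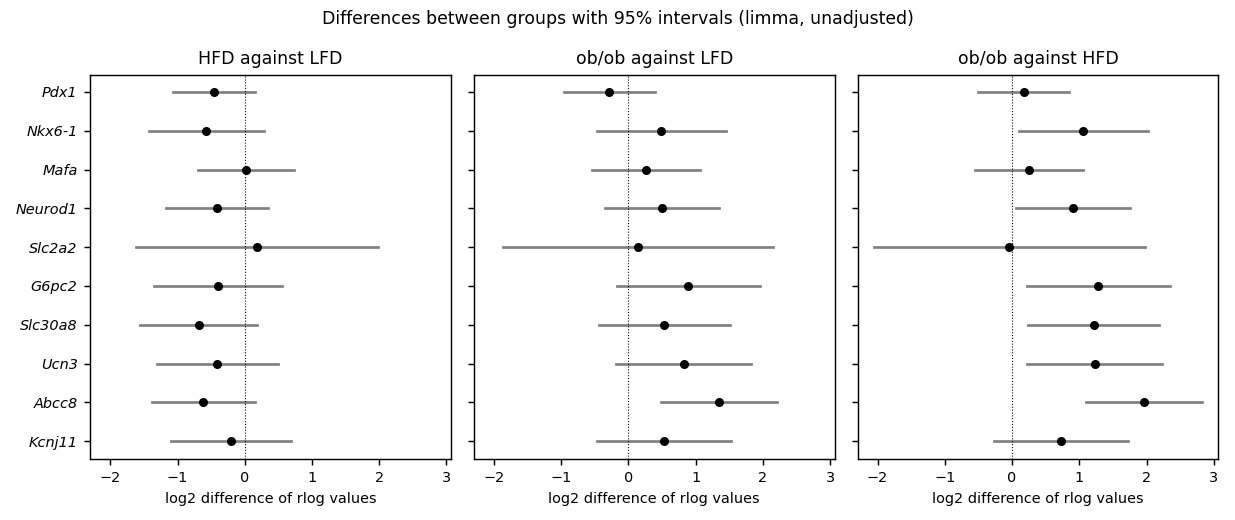
Differences of the group means of the 10 genes on the log2 scale (horizontal axis) with 95% intervals from limma, not adjusted, for HFD against LFD, ob/ob against LFD and ob/ob against HFD. All intervals of HFD against LFD cover 0, that of Abcc8 lies above 0 against LFD, and those of 6 genes lie above 0 in ob/ob against HFD.

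The comparison of HFD with LFD asks what diet-induced obesity did to these genes. Of the 10 genes, 8 had a lower mean in HFD mice, where 47.6% of all genes had, and 2, Mafa and Slc2a2, a higher one. Their median difference was -0.41 against 0.03 over all genes. None of the 10 had groups that did not overlap, where 25.2% of all genes had, and none passed an unadjusted p of 0.05, where 19.8% of all genes did. The adjusted test called 0 of the 10 and 0% of all genes (limma, 2985 of 15047 at an unadjusted p under 0.05). With limma's array weights, which did not converge, 4 of the 10 genes were called, all lower in HFD mice, beside 6656 of 15047 genes. The share of all genes was the larger one, so these calls do not set the 10 genes apart. Without HFD replicate 1 the adjusted test called 2812 of all genes and 0 of the 10. Single mice decided part of this picture. With every mouse 0 of the 10 genes had all HFD mice below all LFD mice, where 12.3% of all genes had. Without HFD replicate 1 this number was 4, where 26.6% of all genes had this order, and without LFD replicate 3 it was also 4, where 15.9% had. Likewise, without HFD replicate 3 or LFD replicate 3 all 10 genes had the lower mean in HFD mice.

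The comparison of ob/ob with LFD concerns genetic obesity. In ob/ob mice 9 of the 10 genes had the higher mean, where 53.1% of all genes had, with a median difference of 0.51 against 0.04 over all genes. Abcc8 and Kcnj11 were higher in both ob/ob mice than in all LFD mice, 2 of 10, where 24.1% of all genes were, and only Abcc8 had a higher value with an unadjusted p under 0.05, where 11.6% of all genes had. These shares of the 10 genes were not above those of all genes. The adjusted test called 0 of the 10 and 0% of all genes (limma, 2831 of 15047 at an unadjusted p under 0.05). Without LFD replicate 2, the highest LFD mouse for most of the genes, 7 of the 10 had ob/ob mice above all LFD mice, where 30.8% of all genes had, and the same number did without ob/ob replicate 2, where 31.2% had.

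The comparison of ob/ob with HFD is also the test of whether both forms of obesity differed in their difference from LFD, since LFD cancels out. Again 9 of the 10 genes had the higher mean in ob/ob mice, where 51.7% of all genes had, and the median difference was 0.99 against 0.01 over all genes. Both ob/ob mice were above all HFD mice for 7 of the 10 genes, Nkx6-1, Neurod1, Slc30a8, Abcc8, Kcnj11, G6pc2 and Ucn3, where 7.92% of all genes were. An unadjusted p under 0.05 with a higher value was reached by 6 of the 10, all of these but Kcnj11, where 2.28% of all genes reached it. The adjusted test called 0 of the 10 and 0% of all genes (limma, 588 of 15047 at an unadjusted p under 0.05), and the smallest adjusted p of any gene was 0.883. The number with an unadjusted p under 0.05 was 2 without HFD replicate 2, 2 without HFD replicate 3 and 1 without ob/ob replicate 1, where the lone ob/ob mouse is taken to vary like the others. The number with ob/ob above all HFD mice was 7 to 9 whichever mouse was left out. No share of all genes was taken for these counts without a mouse. This order is easier to reach with fewer mice, so the 7.92% above is no baseline for them. The median difference ran from 0.62 without ob/ob replicate 1 to 1.48 without ob/ob replicate 2.

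For all 5 obese mice against LFD, with the HFD and ob/ob means weighted equally, 7 of the 10 genes had a higher mean, where 53.5% of all genes had, and 3 a lower one, with a median difference of 0.15 against 0.04 over all genes. None of the 10 had groups that did not overlap, where 18.4% of all genes had, and the adjusted test called 0 of them and 0% of all genes (limma, 3825 of 15047 at an unadjusted p under 0.05). The split was 3 higher and 7 lower without LFD replicate 3, 4 and 6 without ob/ob replicate 1, and 9 and 1 without LFD replicate 2 or ob/ob replicate 2.

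A mouse tended to be high or low for many of the 10 genes. ob/ob replicate 1 was the highest mouse for 7 of them, and LFD replicate 2 was among its top 2 mice for 7. HFD replicate 2 was among the lowest 2 mice for 8 genes and HFD replicate 3 for 6. With each gene centred on its mean over mice, the average of the 10 genes was -0.03, 0.43 and -0.39 in LFD, -0.25, -0.46 and -0.35 in HFD and 0.88 and 0.17 in ob/ob mice. LFD replicate 2 thus lay above ob/ob replicate 2, and the spread within LFD was as wide as the distance between the means of LFD and HFD.

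**Figure D4:**
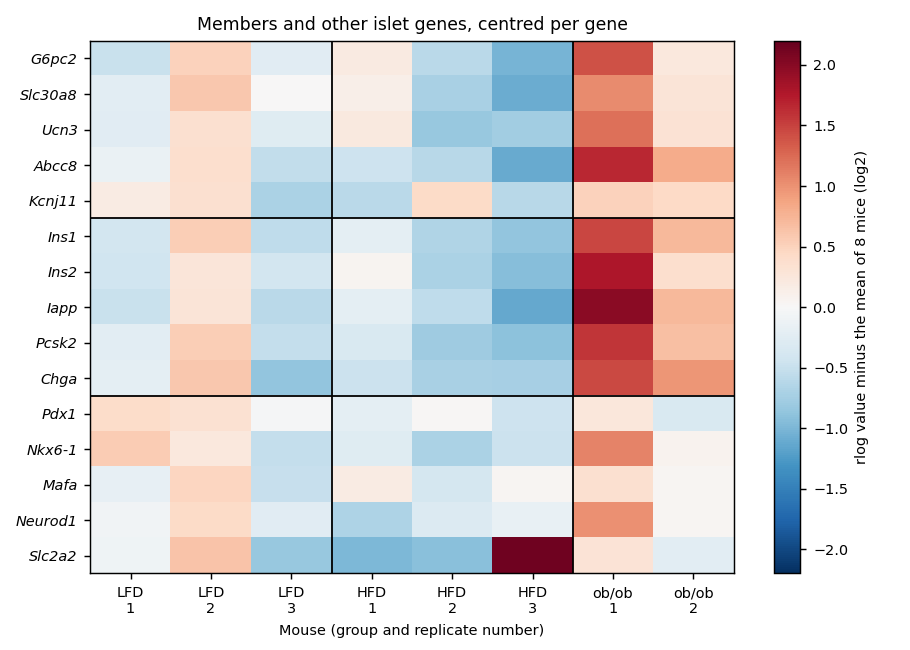
rlog values of the 10 genes and of Ins1, Ins2, Iapp, Pcsk2 and Chga, each minus its mean over the 8 mice (colour, log2 scale), with a mouse in each column. ob/ob replicate 1 is high in nearly all rows, HFD replicates 2 and 3 are low in most, and the row of Slc2a2 has its peak in HFD replicate 3.

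Several insulin and granule genes of the islet also had their highest values in the ob/ob mice. Ins1 was at 11.3, 12.3 and 11.2 in LFD, at 11.5, 11.1 and 10.9 in HFD and at 13.2 and 12.4 in ob/ob mice, so that both ob/ob mice were above all others. Its ob/ob mean was 1.24 above LFD (standard error 0.38, limma, adjusted p = 0.208), and those of Ins2, the islet amyloid peptide gene Iapp, the prohormone convertase Pcsk2 and the granule protein Chga were 1.27, 1.62, 1.19 and 1.38 above LFD (adjusted p from 0.190 to 0.227). All 4 were also higher in each ob/ob mouse than in every LFD mouse. Other genes did not share this order. The convertase Pcsk1 was 0.15 above LFD with overlap and the receptor Glp1r 0.77 below (limma, adjusted p = 0.874 and 0.415). Of 23 measured genes of insulin, glucose metabolism and secretion, 12 had a higher and 11 a lower mean than in LFD mice. Of all genes, 53.1% had a higher one. Among hormones of other islet cells, Ppy of the PP cells was 1.55 above LFD (adjusted p = 0.201), whereas Gcg of the alpha cells was 0.35 below (adjusted p = 0.706) and Sst of the delta cells 0.90 below (adjusted p = 0.346).

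Set against the mean of 7 pan-endocrine genes, which are granule proteins and processing enzymes of all endocrine cells, most of the 10 genes were lower in ob/ob mice. This mean was 7.77 ± 0.55 for the LFD mice, 7.49 ± 0.03 for the HFD mice and 9.05 ± 0.47 for the ob/ob mice. As a difference from it in the same mouse, 9 of the 10 genes were lower in ob/ob than in LFD mice, by a median of 0.77, and 9 were lower than in HFD mice, by a median of 0.57. The medians over all genes on this measure were -1.24 and -1.54, further below 0 than those of the 10 genes. On this measure Pdx1 was -1.45 ± 0.41 for the LFD, -1.63 ± 0.26 for the HFD and -3.01 ± 0.06 for the ob/ob mice. Abcc8 was the exception, with -1.40 ± 0.09 for the LFD, -1.75 ± 0.34 for the HFD and -1.33 ± 0.12 for the ob/ob mice. Of all 15047 genes, 94.97% had a lower ob/ob than LFD mean on this measure and 99.8% a lower ob/ob than HFD mean, so being lower was the rule for the tissue, and Abcc8 was among the 37 genes that were not lower than in HFD mice. With the mean of Ins1 and Ins2 in place of the pan-endocrine mean, the counts were also 9 and 9.

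Between HFD and LFD the pan-endocrine mean differed by -0.27, but its 7 genes did not move together. Of them, 5 were lower and 2 higher in HFD mice, from -1.13 to 1.07. Their median difference was -0.47, against -0.41 for the 10 genes. Relative to the pan-endocrine mean, 7 of the 10 genes were lower, with a median of -0.14. On this measure 26.6% of all genes were lower and the median over all genes was 0.30. The number of the 10 genes that were lower was 5 to 8 when a mouse was left out.

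**Figure D5:**
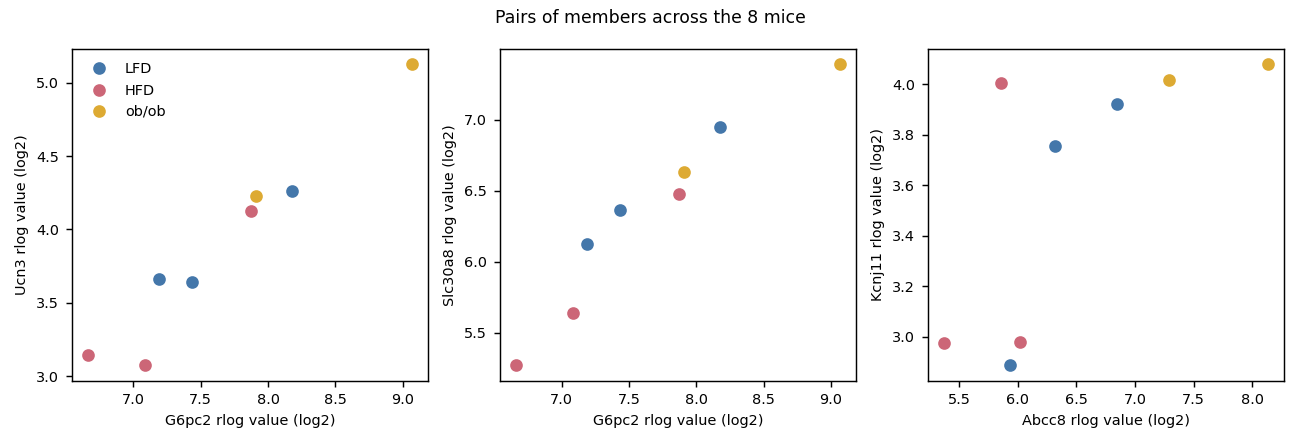
rlog values (log2 scale, both axes) of G6pc2 against Ucn3, G6pc2 against Slc30a8 and Abcc8 against Kcnj11, with a point for each of the 8 mice coloured by group. G6pc2, Ucn3 and Slc30a8 lie close to a line, with ob/ob replicate 1 at the top right, while Kcnj11 has an HFD mouse at 4.01 away from the others.

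Pairs of the 10 genes were compared over the 8 mice, 45 pairs in all, with exact permutation tests. Adjusted p-values under 0.05 for both Pearson and Spearman correlation were found for 6 pairs, which were all the pairs among 4 genes, Slc30a8, G6pc2, Ucn3 and Abcc8. Slc30a8 and G6pc2 ranked the mice in the same order, with r = 0.963 (exact permutation p = 7.44e-05, adjusted p = 0.00335) and rho = 1.00 (exact permutation p = 4.96e-05, adjusted p = 0.00223). When the 2 mice at the greatest distance from the median were left out, r was 0.935, and over deviations from the group means it was 0.983. G6pc2 and Ucn3 had r = 0.972 (exact permutation p = 0.000273, adjusted p = 0.00409) and rho = 0.952 (p = 0.00114 by exact permutation, adjusted p = 0.0171), with 0.930 and 0.945 in the same checks. Over the 6 pairs, r ran from 0.672 to 0.944 without the 2 mice and from 0.802 to 0.983 within groups.

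The subunits of the potassium channel were less alike. Abcc8 and Kcnj11 had r = 0.699 (exact permutation p = 0.0429, adjusted p = 0.142) and rho = 0.714 (exact permutation p = 0.0576, adjusted p = 0.185), with r of 0.585 and 0.520 in these checks. Abcc8 had r = 0.905 with G6pc2 and 0.908 with Ucn3 (exact permutation, adjusted p = 0.0214 for each). The 9 pairs of Slc2a2 had r between -0.233 and 0.436, and none passed the adjusted test. In the first of these checks r ran from 0.181 to 0.787, and it was 0.787 with Slc30a8, 0.761 with Ucn3 and 0.717 with G6pc2, where HFD replicates 1 and 3 were the mice left out. The 9 pairs of Pdx1 had r between -0.184 and 0.606, and none passed the adjusted test. All these genes share the libraries and the same small fraction of the tissue.

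The genes of the table most like the mean of the 10 genes over the 8 mice, outside the 10, were C8b (r = 0.987), A330076H08Rik (0.987), Zcchc18 (0.983), Gpr158 (0.982) and the granule protein Scg3 (0.974). With deviations from the group means, 2 of these 5 were still among the top 5. For single genes, the closest of all was Ins2 for G6pc2 (r = 0.976), the islet transcription factor Rfx6 for Ucn3 (0.987), Nell1 for Abcc8 (0.994), Efcab1 for Slc30a8 (0.983) and Armcx1 for Kcnj11 (0.969). Among the transcription factors it was Ctf1 for Pdx1 (0.952), Rimbp2 for Nkx6-1 (0.985), Fam107a for Neurod1 (0.997) and Tbxa2r for Mafa (0.910), and for Slc2a2 it was Lrrc10b (0.981), which was also highest in HFD replicate 3, at 4.74. These are descriptions over 8 mice, picked from 15047 genes.

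Other genes of the same pathways were read from lists. Of 13 other islet transcription factors in the table, 1 was higher and 0 were lower in HFD than in LFD mice at an unadjusted p under 0.05, where 11.5% of all genes were higher and 8.35% lower. In ob/ob mice 2 were higher and 2 lower, where 11.6% and 7.18% of all genes were. The medians were -0.31 and 0.26. Pax6, a factor of all endocrine cells, was at 4.81, 4.26 and 4.21 in LFD, at 4.26, 3.74 and 3.77 in HFD and at 5.62 and 5.36 in ob/ob mice, 1.06 above LFD (standard error 0.32, limma, adjusted p = 0.204). Nkx2-2 was 0.82 lower in HFD than in LFD mice, below in every mouse (adjusted p = 0.292), and Isl1 was 0.63 lower (adjusted p = 0.408).

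Of 23 measured genes of insulin, glucose metabolism and secretion, 1 was higher and 7 were lower in HFD than in LFD mice at an unadjusted p under 0.05, with a median of -0.60, where 11.5% of all genes were higher and 8.35% lower. For ob/ob against LFD, 6 had the higher and 5 the lower value, with a median of 0.15, where 11.6% and 7.18% of all genes had. For ob/ob against HFD the numbers were 6 and 1, where 2.28% of all genes were higher and 1.63% lower. None passed the adjusted test. The incretin receptor Glp1r was 1.19 lower in HFD than in LFD mice (standard error 0.47, limma, adjusted p = 0.224) and the prohormone convertase Pcsk1 0.90 lower (0.41, adjusted p = 0.269). The receptors Gipr and Ffar1 were higher in each ob/ob mouse than in every HFD mouse, by 1.03 and 0.89 (adjusted p = 1.00 for each).

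Of 8 measured paralogs and partners of the 10 genes, 1 was higher and 2 were lower in HFD than in LFD mice at an unadjusted p under 0.05, where 11.5% of all genes were higher and 8.35% lower. Slc2a1, the widespread glucose transporter, was at 6.85 to 6.90 in LFD, at 6.62, 8.91 and 8.69 in HFD and at 7.08 and 8.04 in ob/ob mice (HFD against LFD 1.20, standard error 0.56, limma, adjusted p = 0.272).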

How the data were processed

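RNA-Seq values were analysed for the pancreas of 8 male mice, grouped by the sample titles as LFD (3), HFD (3) and ob/ob (2). The authors quantified transcripts of Gencode M18 (GRCm38.p6) with Salmon 0.11.3, summed them per gene with tximport, and deposited rlog values of DESeq2 1.22.2, which are on a log2 scale. The filter that left 15047 genes, and whether the groups entered the transformation, are not given in the sources used here. The authors tested counts with DESeq2, whereas counts were not used here.

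The rlog values were fitted with limma 3.58.1 (R 4.3.3) with a mean per group, all 8 mice and a trend of the variance on the mean. HFD and ob/ob were each compared with LFD and with each other, and the average of both obese groups was compared with LFD, with Benjamini-Hochberg adjustment over 15047 genes and a threshold of 0.05. The fit was tested on simulated data. Correlations of pairs were tested by exact permutation in Python 3.11.15. Coordinates are from Gencode M21 and promoters from RefSeq, both on GRCm38.

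The 10 genes, the other lists and the named genes were chosen with earlier results of these data known. Besides the 10 genes, the text names genes from a fixed list of 22, of which 2 are not reported here, the genes most like the members by correlation, and, from a list added later, enterocyte and hepatocyte genes. Each member was also taken relative to the mean of the pan-endocrine genes. The alternatives were no variance trend, a fit to the compared groups alone, dropping genes whose average rlog value was under 5, median centring, quantile normalization, array weights, a replicate block, covariates for acinar, pan-endocrine and enterocyte genes, and leaving out each mouse.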

Additional observations from a re-analysis of the deposited data

Results flagged for a closer look

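For 3 of the 10 genes every HFD mouse lay below the LFD mean and both ob/ob mice lay above it, where 1.38% of all genes had this order. It rests on near ties, since ob/ob replicate 2 was at 2.77 for Neurod1 against an LFD mean of 2.75, and HFD replicate 1 was at 6.48 for Slc30a8, the LFD mean to 2 decimals. The difference between ob/ob and HFD was 0.91 for Neurod1, 1.21 for Slc30a8 and 1.96 for Abcc8 on the log2 scale. The limma contrast of ob/ob against HFD tests this difference, and it did not pass for any of them after adjustment (adjusted p = 1.00 for Neurod1 and Slc30a8 and 0.883 for Abcc8). Of the 10 genes, none had an outlying mouse among the 5 obese mice by Dixon's test. This test pooled HFD and ob/ob mice. It thus cannot show a mouse far from its own group, as HFD replicate 3 was for Slc2a2.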

How the results depend on the processing

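Counts rather than rlog values were not analysed here, the depth of each mouse is unknown, and groups of 2 or 3 mice limit every comparison. Genes called among all genes numbered 1 for HFD against LFD and 38 for ob/ob against LFD with only the groups compared, and 1 in each comparison but HFD against LFD with the acinar covariate. Array weights, which did not converge and gave a weight of 9.36 to HFD replicate 2 and 0.273 to HFD replicate 1, called 6656 genes in HFD against LFD and 4286 in obese against LFD. Among the 6656 of 15047 genes called in HFD against LFD were 4 of the 10 genes, Nkx6-1 (-0.82, adjusted p = 0.0248), Slc30a8 (-0.91, adjusted p = 0.0114), Abcc8 (-0.62, adjusted p = 0.0483) and Ucn3 (-0.82, adjusted p = 0.0222), all lower in HFD mice. This was no larger share than that of all genes, and how many of the 6656 were lower is not given here. When a mouse was left out, the genes called ran from 0 to 2812 for HFD against LFD, from 0 to 89 for ob/ob against LFD, from 0 to 1 for ob/ob against HFD and from 0 to 3326 for obese against LFD, with the highest count of the first, second and last without HFD replicate 1, and 0 of the 10 genes were called in each case. Relative to the pan-endocrine mean, the genes lower in HFD than LFD numbered 5 to 8, in ob/ob than LFD 9 to 10 and in ob/ob than HFD 7 to 9.

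Signs of the 10 genes turned as follows, on the log2 scale. HFD against LFD was for Mafa -0.064 with median centring, -0.011 with quantile normalization, -0.37 with array weights and -0.025 with the enterocyte covariate, for Slc2a2 -0.80 with array weights, -0.69 with the acinar and -0.73 with the enterocyte covariate, for Kcnj11 0.31 with array weights, and for G6pc2 and Ucn3 0.25 and 0.11 with the acinar covariate. ob/ob against LFD was for Slc2a2 -0.024 with quantile normalization, -0.00162 with array weights, and -0.80, -1.39 and -0.41 with the acinar, pan-endocrine and enterocyte covariates. With the pan-endocrine covariate it was -0.64 for Nkx6-1, -0.75 for Mafa, -0.56 for Neurod1, -0.42 for Slc30a8, -0.30 for Kcnj11, -0.40 for G6pc2 and -0.22 for Ucn3. ob/ob against HFD was with the same covariate -0.52 for Pdx1, -0.30 for Nkx6-1, -0.99 for Mafa, -0.38 for Neurod1, -0.28 for Kcnj11, -0.28 for G6pc2 and -0.038 for Ucn3 (Abcc8 and Slc30a8 kept their sign at 0.50 and 0.065), and with array weights -0.038 for Pdx1 and 0.79 for Slc2a2, which was 0.32 with the enterocyte covariate. The cause was not tested. Leaving out a mouse moved HFD against LFD from -0.54 to 0.000256 for Kcnj11, from -0.20 to 0.29 for Mafa and from -0.85 to 0.72 for Slc2a2. It moved ob/ob against LFD from -0.021 to 1.00 for Nkx6-1, from -0.58 to 0.0095 for Pdx1 and from -0.22 to 0.50 for Slc2a2, and ob/ob against HFD from -0.12 to 0.47 for Pdx1 and from -0.58 to 0.99 for Slc2a2.

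Whether the replicate numbers pair the mice could not be settled. Deviations of same-numbered LFD and HFD mice had r of -0.06, 0.11 and -0.28. Those of HFD and ob/ob mice had 0.59 and 0.30, but ob/ob replicate 2 was more like HFD replicate 3, at 0.44. Deviations of the 2 ob/ob mice from their own mean mirror each other, so their r values are not separate. The replicate block called 0 genes in all 4 comparisons, as without it, and turned Slc2a2 to 0.29 in ob/ob against HFD.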

Other observations

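Genes that beta cells keep low or that appear when they lose their identity were also read, from a list of 7 of which 5 were measured. In bulk tissue their values do not come from beta cells alone, and the list shares a gene with the ductal genes below. The counts can thus not be read as a change in beta cells. At an unadjusted p under 0.05, 3 were higher in HFD than in LFD mice and 0 were lower, with a median of 1.14, where 11.5% of all genes were higher and 8.35% lower. In ob/ob against LFD 0 were higher and 0 lower, with a median of 0.81, where 11.6% and 7.18% of all genes were, and none passed the adjusted test (limma) in either comparison. Aldh1a3, an aldehyde dehydrogenase of dedifferentiated beta cells that duct and tumour cells also express, was at 7.50, 8.04 and 7.18 in LFD, at 8.18, 9.68 and 10.7 in HFD and at 8.32 and 8.12 in ob/ob mice. All HFD and ob/ob mice were above all LFD mice, by 1.95 for HFD (standard error 0.55, limma, adjusted p = 0.180) and 0.65 for ob/ob (0.61, adjusted p = 0.556). The mean of the 11 ductal genes was 9.18 to 9.53 in LFD, 9.59 to 10.3 in HFD and 8.87 to 9.51 in ob/ob mice. The part of duct cells in the values of Aldh1a3 and of the rest of the list was not tested.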
